A study of Mus musculus with 13 samples.

Results

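Interferon-stimulated genes are the transcripts that rise in a cell after an interferon has bound its receptor. They were followed here in the liver of mice given streptozotocin (STZ) and of control mice, as a set of 33 genes given by symbol. Of these, 29 were measured among the 19938 named genes of the array. A gene was measured when a probe set of the platform annotation named it and no other gene. Isg15, Gbp2 and Gbp6 lay only on probe sets shared with other genes, and Ifi44 was named by no single-symbol probe set, so these 4 have no value. Each of the 29 measured genes had 1 such probe set. The mice were male C57BL/6N wild types aged 5 to 6 months. In the STZ group (6 mice) streptozotocin, a glucose analogue that destroys pancreatic beta cells and so produces insulin-deficient diabetes, was injected intraperitoneally at 65 mg/kg on 5 consecutive days at an age of 10 to 16 weeks. The control group (7 mice) was mock-injected with citrate buffer, although the design text of the series describes the controls by a standard diet. Livers were taken 9 to 11 weeks after the injections, and 1 array was hybridised per mouse. The labels call the arrays of a group biological replicates, and give no batch.

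In the usual scheme, type I interferons act through the receptor chains Ifnar1 and Ifnar2 and the kinases Jak1 and Tyk2. Stat2 is phosphorylated and joins Irf9 in the complex that binds interferon-stimulated response elements (ISRE), whereas interferon gamma acts mainly through gamma-activated sites (GAS). The proteins made in response sense viral nucleic acid, block its replication or switch the signal off again. In liver, hepatocytes, Kupffer cells and endothelial cells all carry interferon receptors.

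In STZ livers 11 of the 29 interferon-stimulated genes were higher than in controls and 0 were lower at an adjusted p under 0.05 in limma. Over all 19938 genes, 5.09% were higher and 4.04% were lower by the same rule, 9.12% together. The genes that rose were Usp18, Gbp3, Zbp1, Gbp7, Irf7, Oasl2, Xaf1, Mx2, Trim30a, Irf9 and Ddx58. At an unadjusted p under 0.05, 19 of the 29 were higher and 0 lower, where 11.1% of all genes were higher and 20.8% differed in either direction. The median difference of the 29 genes (STZ minus control, log2 units, as for all differences below) was 0.29 against -0.01 over all genes, and 27 of the 29 differences were above 0. The sizes were small, and Usp18 was the 1 gene that differed at least 2-fold. With the exact rank-sum test 4 of the 29 passed (Usp18, Irf9, Gbp3 and Gbp7), where 623 of all genes were higher. With the STZ arrays of consecutive label numbers (29 to 32) 6 of the 29 passed, while the number of all genes that were higher was 1056, against 1014 with all arrays. That fit left out STZ replicates 5 and 6 (label numbers 40 and 42). Their median deviations from the control means over the 29 genes were the highest of all arrays (0.53 and 0.57). The median difference of the set was then 0.22, and Ddx58, Irf7, Oasl2, Trim30a and Xaf1 no longer passed.

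**Figure D1:**
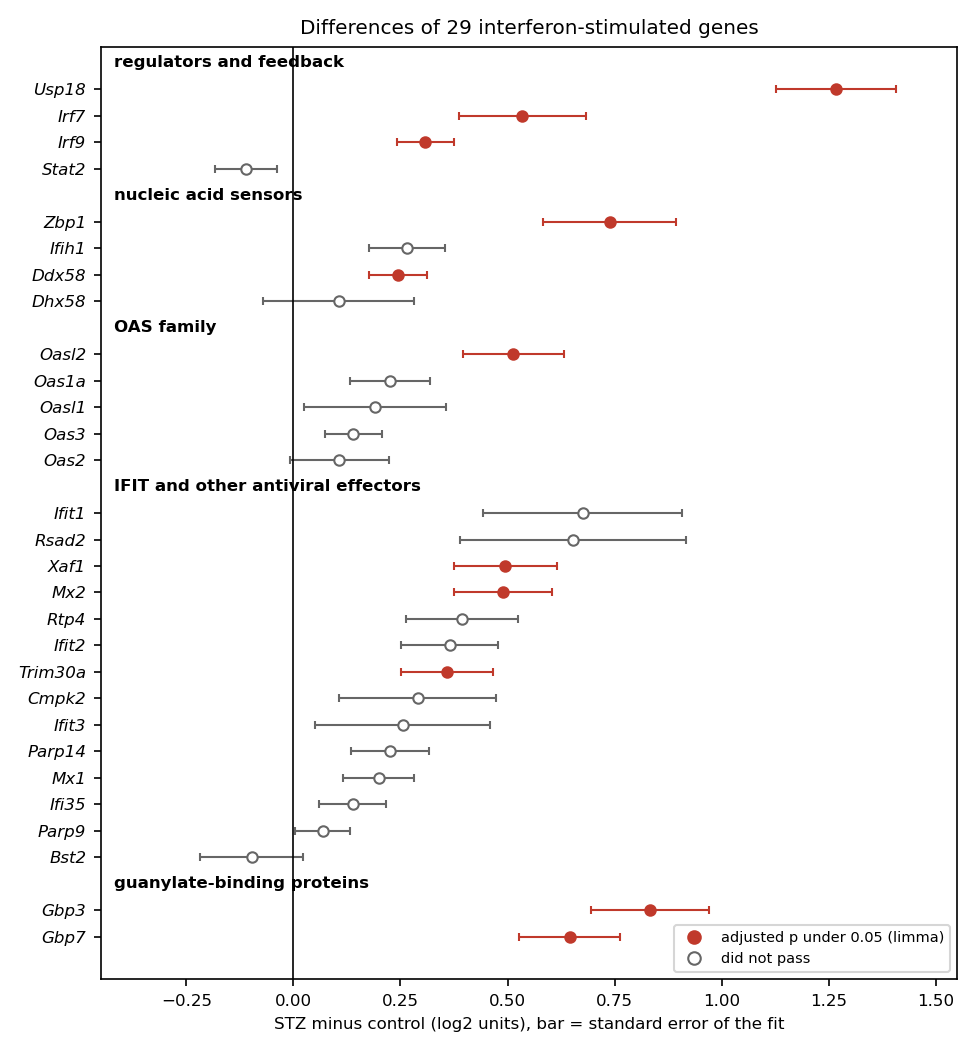
Difference of each of the 29 measured genes (STZ minus control, log2 units, horizontal axis) with the standard error of the fit as bar, grouped by role. Filled red points mark the 11 genes with a limma adjusted p under 0.05 and open grey points the other 18, and all differences but those of Stat2 and Bst2 lie above 0.

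The promoters of the set were read from RefSeq windows of assembly GRCm38.p6, held for 23 of the 33 genes. Each window runs from 250 bases before to 50 bases after a start site. In 13 of the 27 windows of these genes that site was the start that RefSeq lists for the gene. Positions below are counted from the window's own start site. An ISRE-like run of letters (GAAA, any 2 bases, GAAA, on either strand) was found in 14 of these 23 genes (60.9%), and in 1079 of all 27025 genes of the table (3.99%). A GAS-like run (TTC, any 3 bases, GAA), which reads the same on both strands and can overlap the ISRE-like one, was found in 5 of the 23 (21.7%) and in 9.55% of all genes. Of the measured genes with a window, the ISRE-like letters were in 4 of 8 that passed the test and in 8 of 12 that did not. Such a match describes these letters in this window and shows no binding. Of the 22 matches, 19 lay before the start, and those of Gbp3 and Gbp7 began between 53 and 39 bases before it. The 250 bases before the start are given for the genes that passed and held a match there, in the direction of the gene, with the match in capitals (here as its complement, so that it ends in TTTC).
Gbp3 (chr3:142559794-142560043, plus strand): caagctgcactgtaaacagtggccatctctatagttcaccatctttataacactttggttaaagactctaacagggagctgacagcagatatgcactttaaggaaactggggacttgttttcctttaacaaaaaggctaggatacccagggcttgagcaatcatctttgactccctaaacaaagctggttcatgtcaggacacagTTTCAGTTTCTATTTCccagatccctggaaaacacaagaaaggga
Gbp7 (chr3:142530086-142530335, plus strand): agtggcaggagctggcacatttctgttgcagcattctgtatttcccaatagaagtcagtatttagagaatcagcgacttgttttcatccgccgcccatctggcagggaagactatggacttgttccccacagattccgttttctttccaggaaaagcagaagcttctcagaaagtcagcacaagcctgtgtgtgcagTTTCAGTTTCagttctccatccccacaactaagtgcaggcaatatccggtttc
Trim30a (chr7:104465194-104465443, minus strand): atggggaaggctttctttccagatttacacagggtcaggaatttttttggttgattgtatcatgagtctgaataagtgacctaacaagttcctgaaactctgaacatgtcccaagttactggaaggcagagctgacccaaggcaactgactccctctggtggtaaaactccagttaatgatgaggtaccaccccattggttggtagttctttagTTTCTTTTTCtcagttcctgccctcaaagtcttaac
For comparison, the match of Ddx58 (which lies just after its start) and 1 match each of 4 genes that did not pass are given with 5 bases on each side, on the strand that begins with GAAA, with the match in capitals.
Ddx58 (chr4:40239809-40239828, plus strand): catagGAAATCGAAActgcc
Ifit1 (chr19:34640780-34640799, minus strand): gactgGAAAGTGAAActgaa
Rsad2 (chr12:26456558-26456577, plus strand): tttctGAAAATGAAAgttgg
Stat2 (chr10:128270271-128270290, minus strand): gaaagGAAACTGAAAccagg
Bst2 (chr8:71537588-71537607, minus strand): tccagGAAAATGAAActgaa

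**Figure D2:**
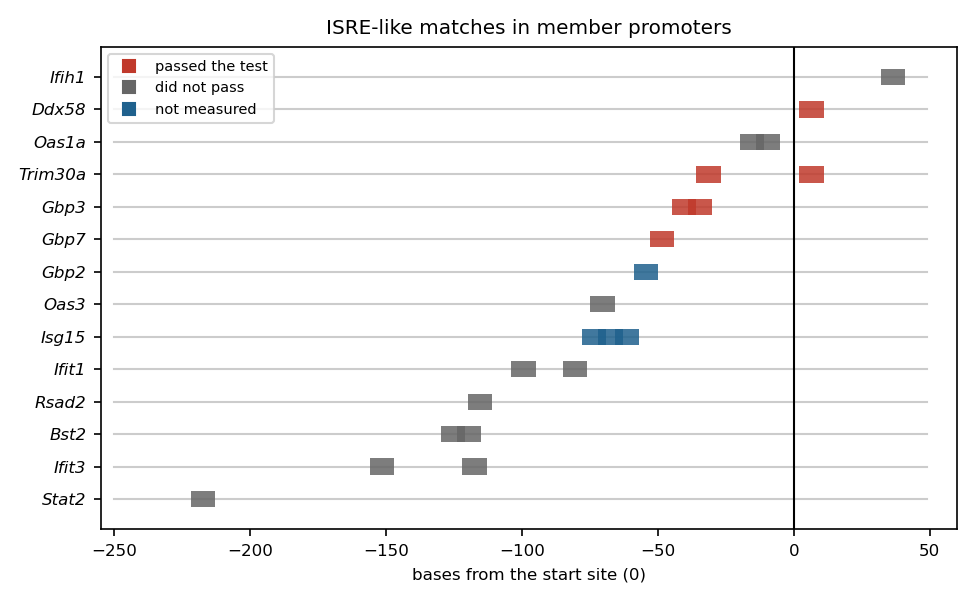
Position of each ISRE-like match (either strand) in the windows of the 14 genes that held one, in bases from the start site (0, vertical line). Red marks genes that passed the test, grey genes that did not and blue genes with no value. The 2 matches of Trim30a belong to windows of 2 different starts.

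Among the regulators of the pathway, Usp18, Irf7 and Irf9 rose and Stat2 did not. Usp18 removes Isg15 from proteins and sits on the type I interferon receptor, where it dampens signalling. Its log2 intensity was 8.20, 8.39 and 9.00 (lowest, median and highest of 7) in controls and 9.19, 9.79 and 10.04 (of 6) in STZ livers. The groups did not overlap, and control replicate 5 was the highest control. The means were 8.44 ± 0.27 (SD, n = 7) and 9.71 ± 0.32 (SD, n = 6), a difference of 1.27 ± 0.14 (SE of the fit) or 2.41-fold (adjusted p = 3.48e-05 in limma). It held rank 40 among all genes by increase, and its adjusted p stayed between 8.68e-06 and 0.000158 when any 1 array was left out. Irf9, the DNA-binding part of the ISRE-binding complex, was 8.62, 8.75 and 8.91 in controls and 8.97, 9.04 and 9.34 in STZ livers. It was the other of 2 genes in the set whose groups did not overlap, where 2.30% of all genes had every STZ array above every control and 3.86% did not overlap in either direction. Its difference was 0.31 ± 0.07 (adjusted p = 0.00739).

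Irf7, the transcription factor that drives interferon alpha genes and is itself induced, was 8.26, 8.37 and 8.71 in controls and 8.53, 8.95 and 9.55 in STZ livers. STZ replicates 6, 5 and 1 were the highest, and replicates 2 and 3 lay within the control range. The difference was 0.53 ± 0.15 (adjusted p = 0.0308). Irf7 lost its call in 8 of 13 fits without 1 array (control replicates 1, 3, 4, 5 and 7 and STZ replicates 1, 5 and 6), with adjusted p up to 0.0738, and in limma with trend and robust variance (0.0554). Stat2, the partner of Irf9, was 8.64, 8.83 and 8.91 in controls and 8.40, 8.74 and 8.87 in STZ livers, so no STZ array was above the highest control. Its difference was -0.11 ± 0.07 (adjusted p = 0.439).

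**Figure D3:**
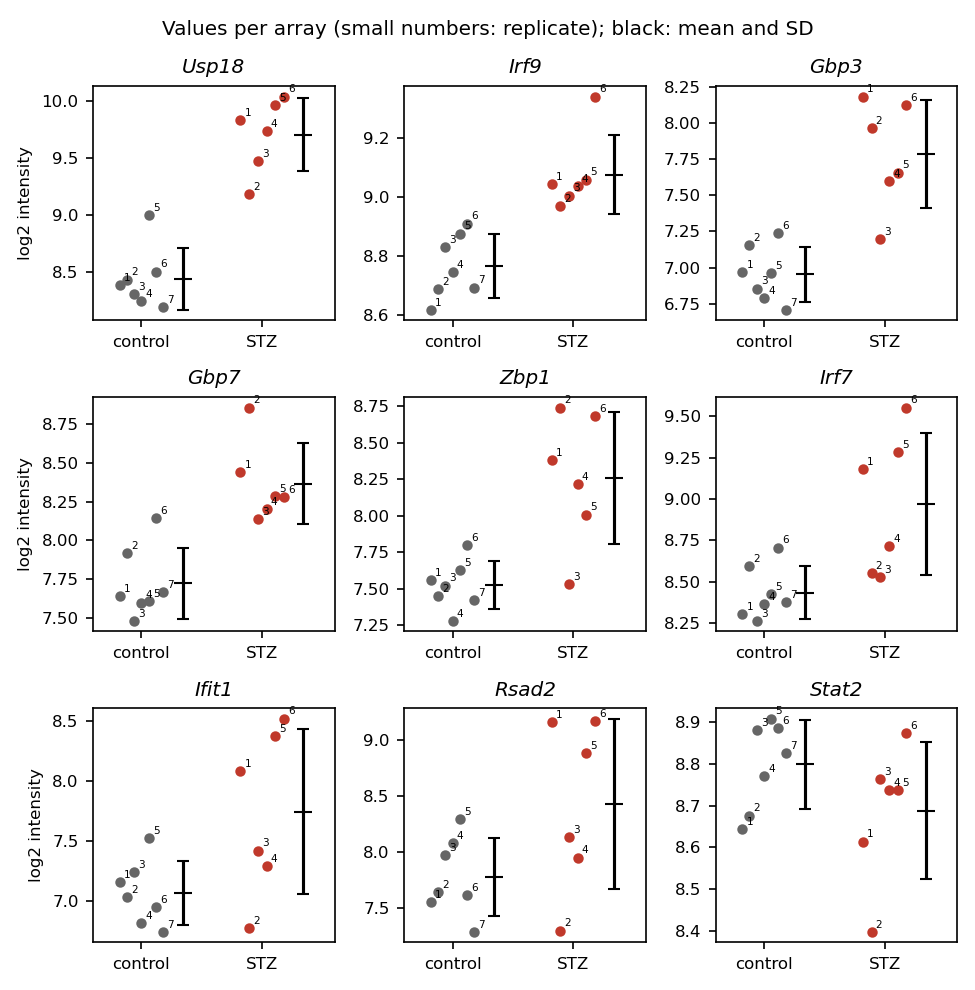
Log2 intensity of 9 genes on each array, with control arrays in grey and STZ arrays in red, the replicate number beside each point, and the mean with SD in black. Usp18 and Irf9 do not overlap between the groups, Gbp7 touches the highest control, and STZ replicate 2 lies within the control range for Ifit1 and Rsad2 but is the highest array for Gbp7 and Zbp1.

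The guanylate-binding proteins are large GTPases that act against pathogens inside cells, and both measured members rose. Gbp3 was 6.71, 6.96 and 7.24 in controls and 7.20, 7.81 and 8.18 in STZ livers, with 5 of 6 STZ arrays above the highest control. Its difference was 0.83 ± 0.14, or 1.78-fold (adjusted p = 0.00104), the second in size of the set. Its neighbour on the chromosome, Gbp7, was 7.48, 7.64 and 8.14 in controls and 8.14, 8.28 and 8.86 in STZ livers. Control replicate 6 (8.142) lay just above the lowest STZ array (8.140), and no other control reached the STZ range. The difference of Gbp7 was 0.64 ± 0.12 (adjusted p = 0.00209). Both kept their call in all 13 fits without 1 array. The genes of this family are close copies of each other, so their probes can cross-hybridise and the values of single members are uncertain.

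Of the sensors of nucleic acid, Zbp1 and Ddx58 rose. Zbp1, which binds left-handed nucleic acid and can start necroptosis, was 7.28, 7.52 and 7.80 in controls and 7.53, 8.30 and 8.74 in STZ livers. STZ replicate 3 (7.53) was at the control level and the other 5 were above all controls, with replicate 2 the highest. The difference was 0.74 ± 0.16, or 1.67-fold (adjusted p = 0.00593). Ddx58, which encodes the viral RNA sensor RIG-I, was 8.95, 9.09 and 9.24 in controls and 9.04, 9.35 and 9.45 in STZ livers, with STZ replicate 2 within the control range and the other 5 above it. Its difference was 0.24 ± 0.07 (adjusted p = 0.0313). That call ended in 8 of 13 fits without 1 array (control replicates 1, 6 and 7 and STZ replicates 1, 3, 4, 5 and 6; adjusted p up to 0.0775) and with arrays centred on their median gene (0.0529). Ifih1, the related long-RNA sensor MDA5, differed by 0.27 ± 0.09 (adjusted p = 0.0741) and passed without STZ replicate 2 (0.33, 0.0141) or replicate 3 (0.31, 0.0389). Dhx58, the regulator LGP2 of the same family, ran from 7.65 to 8.17 in controls and from 7.02 to 8.50 in STZ livers, so the STZ arrays lay on both sides of the controls. Its difference was 0.11 ± 0.18 (adjusted p = 0.819).

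The oligoadenylate synthetases make the messenger that activates RNase L, and the related Oasl genes act on RNA sensing and translation. Of the 5 genes 1 rose, Oasl2. It was 7.02, 7.17 and 7.42 in controls and 7.34, 7.77 and 8.07 in STZ livers, with 4 of 6 STZ arrays above all controls, and differed by 0.51 ± 0.12 (adjusted p = 0.0107). Its neighbour Oasl1, known to hold back translation of Irf7, was 8.46, 8.66 and 9.15 in controls and 8.06, 9.01 and 9.27 in STZ livers. STZ replicate 2 was below every control and 3 STZ arrays were above every control. The difference of Oasl1 was 0.19 ± 0.17 (adjusted p = 0.597). Oas1a (0.23 ± 0.09, adjusted p = 0.17), Oas3 (0.14 ± 0.07, 0.25) and Oas2 (0.11 ± 0.12, 0.684) did not pass, and Oas1a passed without control replicate 4 (0.29, 0.0289). Oas3 lay below the median gene (6.65), where arrays compress differences, and the Oas1 genes are close copies whose probes can cross-hybridise.

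The antiviral effectors formed the largest group, and 3 of its 14 measured genes rose. Xaf1, a promoter of cell death, was 6.56, 6.70 and 7.02 in controls and 6.64, 7.35 and 7.58 in STZ livers. STZ replicates 2 and 3 were within the control range, 4 STZ arrays were above it, and the difference was 0.50 ± 0.12 (adjusted p = 0.0156). Mx2, a dynamin-like GTPase, was 5.08, 5.22 and 5.58 in controls and 5.40, 5.83 and 6.06 in STZ livers and differed by 0.49 ± 0.11 (adjusted p = 0.012). Its relative Mx1, which is defective in C57BL/6 mice, differed by 0.20 ± 0.08 (adjusted p = 0.177), and both lay below the median gene. Trim30a, a ubiquitin ligase that restrains inflammatory signalling, was 8.08, 8.21 and 8.50 in controls and 8.25, 8.67 and 9.01 in STZ livers. Its difference of 0.36 ± 0.11 passed narrowly (adjusted p = 0.047) and did not pass in 10 of 13 fits without 1 array (all but those without control replicate 5 and STZ replicates 2 and 3; adjusted p up to 0.108), nor with arrays centred on their median gene (0.0552).

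Ifit1 and Rsad2 had larger differences than these but did not pass. Ifit1 binds foreign RNA and stops its translation. It was 6.75, 7.04 and 7.53 in controls and 6.78, 7.75 and 8.52 in STZ livers, with replicates 6, 5 and 1 above all controls and replicate 2 near the lowest control. The difference was 0.68 ± 0.23 (adjusted p = 0.0873), and without STZ replicate 2 it was 0.87 (0.0124). Rsad2, or viperin, makes a chain-terminating nucleotide. It was 7.29, 7.64 and 8.29 in controls and 7.30, 8.51 and 9.16 in STZ livers, again with replicates 6, 1 and 5 above all controls. Its difference was 0.65 ± 0.26 (adjusted p = 0.155), and 0.88 without STZ replicate 2 (0.021). The SD of Ifit1 was 0.27 in controls and 0.68 in STZ livers, and that of Rsad2 was 0.35 and 0.76.

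The other effectors did not pass. Cmpk2, the mitochondrial nucleotide kinase next to Rsad2 on the chromosome, differed by 0.29 ± 0.18 (adjusted p = 0.416), with 3 STZ arrays above all controls and 1 below them. Ifit3 (0.25 ± 0.20, adjusted p = 0.553) had the same counts. Ifit2 (0.36 ± 0.11) missed the threshold at an adjusted p of 0.0556. It passed without control replicate 5 (0.0478), STZ replicate 1 (0.0481) or STZ replicate 3 (0.012). Rtp4 differed by 0.39 ± 0.13 (adjusted p = 0.074) and passed without control replicate 6 (0.46, 0.0389). The ADP-ribosyltransferase Parp14 (0.23 ± 0.09, adjusted p = 0.157) passed without STZ replicate 3 (0.29, 0.0495). Ifi35 (0.14 ± 0.08, adjusted p = 0.346) and Parp9 (0.07 ± 0.06, 0.634) did not pass. Bst2, or tetherin, which holds budding virus on the cell surface, differed by -0.10 ± 0.12 (adjusted p = 0.736).

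The STZ livers differed among themselves more than the controls did. The SD was larger in STZ than in control arrays for 27 of the 29 genes, and for 61.6% of all genes. The median ratio of the SDs was 1.90 in the set and 1.17 over all genes. Against the control mean of each gene, the median deviation over the 29 genes was 0.57 in STZ replicate 6, 0.53 in replicate 5, 0.46 in replicate 1, 0.27 in replicate 4, 0.11 in replicate 3 and 0.07 in replicate 2. In controls it ran from -0.13 (replicate 7) to 0.15 (replicate 5), so STZ replicates 2 and 3 lay within the control range. STZ replicate 6 was the highest STZ array for 14 of the 29 genes and for 11.6% of all genes. STZ replicate 2 was the lowest for 15 of the 29 and for 20.5% of all genes, yet it was the highest for Gbp7, Zbp1 and Oas1a. Its values were below the control mean for 14 of the 29 genes and above it for 15.

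**Figure D4:**
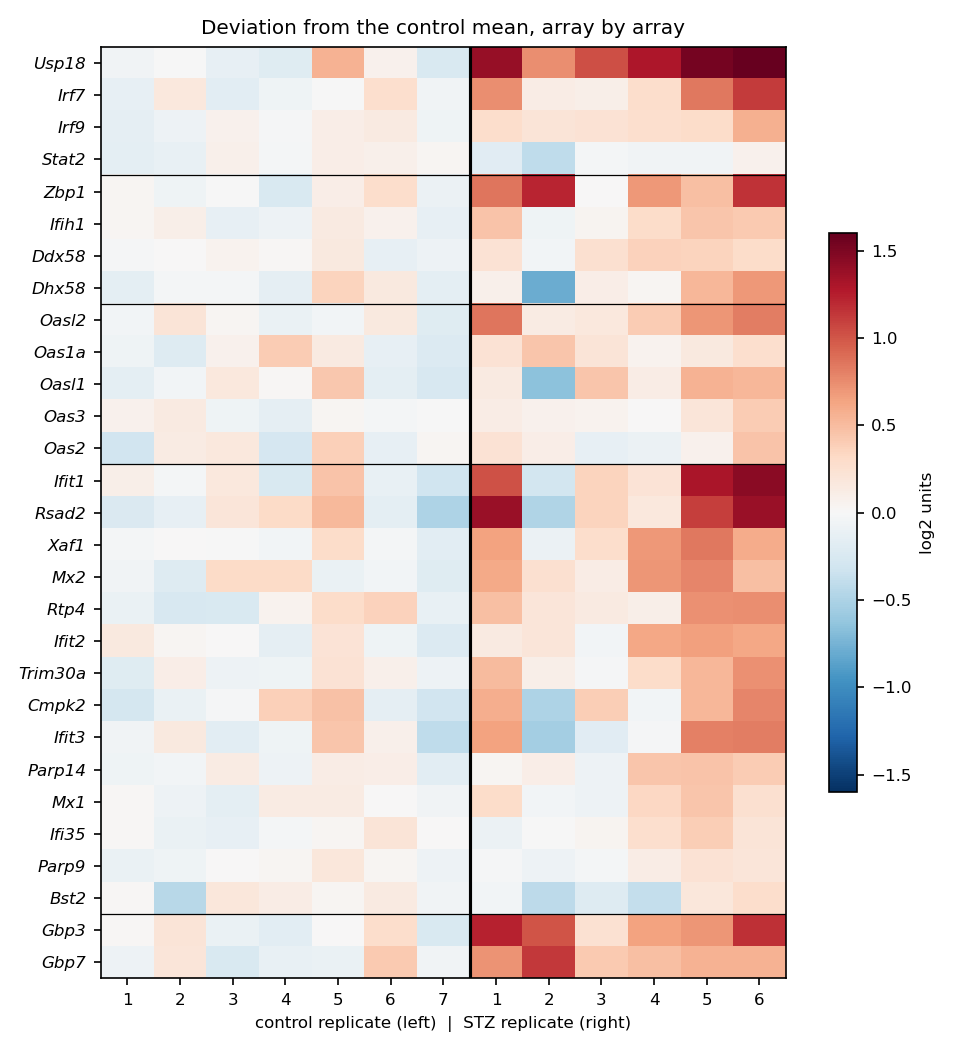
Deviation of each gene from its control mean (log2 units, colour) on each array, with control arrays left and STZ arrays right of the vertical line and genes grouped by role. STZ replicates 1, 5 and 6 are red for most genes. Among others, STZ replicate 2 is red for Usp18, Gbp3, Gbp7, Zbp1 and Oas1a. It is blue for Ifit1, Rsad2, Ifit3, Cmpk2, Oasl1, Dhx58, Bst2 and Stat2, among others.

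Markers of liver macrophages moved with the groups too. The counts below stand beside 5.09% of all genes that were higher and 4.04% that were lower in limma. Of 10 Kupffer cell markers, 5 rose and 0 fell, with a median difference of 0.38, while 0 of the 10 passed in the exact rank-sum test (9 had an unadjusted p under 0.05 in limma). Their summed intensity (log2 of the sum of linear values) ran from 12.54 to 12.93 in controls and from 12.63 to 13.37 in STZ livers, and 1 of the 10, Marco, lay below the median gene. Array by array, the median deviation of the Kupffer markers was 0.55 in STZ replicate 1, 0.48 in replicate 6 and 0.41 in replicate 4, where that of the interferon-stimulated genes was 0.46, 0.57 and 0.27. In STZ replicate 3 both were low, at -0.09 and 0.11. The values lay further apart in STZ replicate 2, at 0.64 for the Kupffer markers and 0.07 for the interferon-stimulated genes, and in replicate 5, at 0.28 and 0.53. None of the 5 monocyte and neutrophil or the 5 plasmacytoid dendritic cell markers passed in limma (2 and 0 at an unadjusted p under 0.05) or in the exact rank-sum test, and 0 of 9 T and NK cell markers rose while Cd4 fell. Of 3 B cell markers Cd79b fell. Of 5 hepatocyte markers 1 rose and 2 fell, of 5 endothelial markers 1 rose, of 4 stellate cell markers 1 rose and 1 fell, and of 4 bile duct markers 0 passed in limma (1 at an unadjusted p under 0.05) or in the exact rank-sum test. Among the hepatocyte markers Cps1 rose (0.16, adjusted p = 0.0307 in limma), and Apoa1 (-0.23, 0.0158) and Ttr (-0.18, 0.0402) fell. Alb, the defining hepatocyte transcript, ran from 13.56 to 13.70 over all arrays, close to the highest value in the data (14.14). In such whole-tissue RNA, more cells of a type and more RNA per cell cannot be told apart, and the part of the macrophage markers in the differences was not tested.

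**Figure D5:**
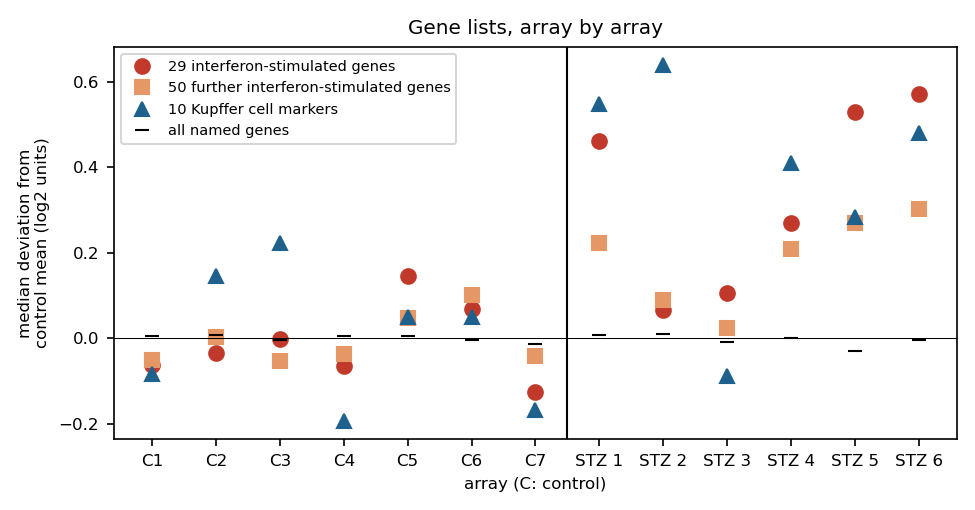
Median deviation from the control mean (log2 units) on each array for the 29 interferon-stimulated genes (circles), 50 further interferon-stimulated genes (squares), 10 Kupffer cell markers (triangles) and all named genes (dashes). STZ replicate 2 is the highest array for the Kupffer markers (0.64) and the lowest STZ array for the 29 genes (0.07).

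Of 15 measured interferon genes 0 passed in limma (2 at an unadjusted p under 0.05, both lower) and 0 in the exact rank-sum test, with a median difference of -0.01, and 13 of the 15 lay below the median gene. Ifnb1 (-0.03 ± 0.08, adjusted p = 0.88) and Ifng (-0.06 ± 0.08, 0.775) were at 4.67 and 5.92 in controls, and the smallest p belonged to Ifna13 (-0.22 ± 0.09, 0.161). Where 5.09% of all genes were higher in limma, 2 of 10 receptors and signal transducers rose. They were Stat3, the transducer of the interleukin-6 family (0.64 ± 0.11, adjusted p = 0.0017), and Il10rb, a chain shared by the receptors of interferon lambda and interleukin-10 (0.26 ± 0.06, 0.0169). Il10rb did not pass in the exact rank-sum test (adjusted p = 0.0874). Ifnar2 was above every control in 6 of 6 STZ arrays, but by 0.10 ± 0.05 (adjusted p = 0.259 in limma and 0.0302 in the exact rank-sum test). Ifnar1 differed by -0.09 ± 0.05 (adjusted p = 0.284).

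Among 8 other interferon regulatory factors and their cofactors, Irf2bp2 rose by 0.39 ± 0.08 (adjusted p = 0.0073). Irf2, which competes with Irf1 for the same sites and represses them, fell by 0.35 ± 0.07 (adjusted p = 0.00452). Its values were 9.39, 9.57 and 9.70 in controls and 9.09, 9.15 and 9.45 in STZ livers, with 5 of 6 STZ arrays below all controls. Irf1 differed by 0.25 ± 0.10 (adjusted p = 0.133) and passed without STZ replicate 3 (0.32, 0.0262), while the difference of Irf1 was 0.145 (0.186) when all its probe sets were averaged. In the sensing pathway 3 of 14 rose, the kinase Ikbke (0.46 ± 0.12, adjusted p = 0.0201), the endosomal RNA receptor Tlr7 (0.39 ± 0.09, 0.00794) and its chaperone Unc93b1 (0.25 ± 0.06, 0.00933). Of 13 negative regulators 2 rose, Trim24 (0.71 ± 0.15, adjusted p = 0.00754) and the cytokine signalling inhibitor Socs3 (0.46 ± 0.10, 0.00758). These list counts stand beside 5.09% of all genes that were higher and 4.04% that were lower in limma. Socs3 was 0.24 (0.0651) when its probe sets were averaged. In the exact rank-sum test Trim24 (adjusted p = 0.0874), Socs3, Ikbke and Tlr7 (0.0628 each) did not pass.

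Where 5.09% of all genes were higher and 4.04% lower in limma, 13 of 50 further interferon-stimulated genes outside the set rose and 0 fell. Their median difference was 0.22, and 44 differences were above 0. Among those that passed, the largest differences were those of Herc6, the ligase that attaches Isg15 (0.53 ± 0.12, adjusted p = 0.0113), Parp12 (0.48 ± 0.06, 6.27e-05), Ifi27l2a (0.47 ± 0.13, 0.0292) and the GTPase Irgm1 (0.47 ± 0.11, 0.0108). They were followed by Ly6e (0.42 ± 0.09, adjusted p = 0.00751) and Lgals3bp (0.39 ± 0.08, 0.0071). Parp12 was 9.86, 9.89 and 10.06 in controls and 10.20, 10.42 and 10.53 in STZ livers, with no overlap. Ifi27l2a lost its call without control replicates 1, 3, 4 or 7 or STZ replicates 1, 4 or 6, with values of 0.42 to 0.47, and with the STZ arrays of consecutive label numbers (0.40, adjusted p = 0.112). Irgm1 also lost its call with those arrays (0.38, 0.0547). In the exact rank-sum test 4 of these 50 genes were higher and 0 lower, and Ifi27l2a (adjusted p = 0.161), Irgm1 (0.0874) and Lgals3bp (0.0628) were not among them. Of the 8 other regulatory factors 0 passed in that test, with Irf2 and Irf2bp2 at 0.0628 each.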

How the data were processed

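Per the submitters' processing notes, the authors made the deposited log2 intensities of 35556 probe sets with RMA in Affymetrix Expression Console 1.2, which corrects background, brings arrays to a common distribution and summarises probes. An overall change of RNA per cell is therefore not seen. Annotation version and genome build: not given in the sources used here. Array medians lay within 0.09 of each other. Arrays have no read depth, and the number of arrays limits the precision.

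The platform annotation named 1 gene for 21789 probe sets, several for 1621, and did not list 12146. Symbols matched RefSeq through Entrez identifiers for 21698. The probe set with the highest mean was kept per gene. Differences (STZ minus control) come from limma 3.58.1 under R 4.3.3 (lmFit and eBayes, 2-sided, no filter, Benjamini-Hochberg over 19938 genes, threshold 0.05). The fit was run on simulated data with the same SD in both groups, which does not cover the larger SD of the STZ arrays. All genes of the set could be named. From other lists up to 6 passing genes, or the smallest p, were named, with Irf1, Ifnar1, Ifnar2, Ifnb1 and Ifng. The genes and lists were chosen with earlier results of these data known. Alternatives were another variance model, the exact rank-sum test, a brightness filter, centring, averaged probe sets, fewer arrays and a replicate block. RefSeq promoter windows are of GRCm38.p6.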

Additional observations from a re-analysis of the deposited data

Results flagged for a closer look

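Of 58 groups of values (29 genes in controls and in STZ livers), 6 held an array far from the rest of its group, and chance flags about 1 group in 20. Usp18 was 9.00 in control replicate 5, where the other controls ran from 8.20 to 8.51. Xaf1 was 7.02 in the same array, against 6.56 to 6.73. Bst2 was 9.09 in control replicate 2, against 9.48 to 9.71. Irf9 was 9.34 in STZ replicate 6, against 8.97 to 9.06 in the other STZ arrays. In STZ replicate 2, Oasl1 was 8.06 against 8.84 to 9.27, and Ddx58 was 9.04 against 9.31 to 9.45.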

How the results depend on the processing

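Of 576 recomputed differences of the 29 genes, 518 kept direction and side of the threshold, 43 lost a call, 11 gained one and 4 changed sign. The count of 518 includes settings in which the difference itself could not change. These were averaged probe sets (1 per gene in the set), limma with trend and robust variance, the exact rank-sum test and the brightness filter. In all of them only the call could change. With the exact rank-sum test 4 genes of the set were higher, 8 other interferon pathway genes were higher and 0 lower (21 and 1 in limma), and over all genes 623 were higher and 465 lower (1014 and 805 in limma). With the STZ arrays of consecutive label numbers 6 genes of the set were higher, while over all genes 1056 were higher and 930 lower, and Dhx58 (-0.146), Ifit3 (-0.025) and Parp9 (-0.004) changed sign, uncalled in either fit. Without 1 array each, the difference of Dhx58 ran from -0.011 to 0.286 and the difference of Ifnb1 from -0.065 to 0.005. Among the other pathway genes 2 were lower with trend and robust variance, among genes brighter than the median gene, with arrays centred and with the replicate block. Without 1 array each, 8 to 14 genes of the set were higher and 0 lower, their median was 0.235 to 0.398, 16 to 30 other pathway genes were higher and 1 to 2 lower, and over all genes 761 to 1146 were higher and 625 to 1022 lower. The cause was not tested. The titles number the replicates of both groups, but same-numbered arrays deviated together with correlations of only -0.086 to 0.187, and 1 of 6 STZ arrays correlated best with its own number. The replicate block also left out control replicate 7, which has no STZ array of its number. Without that array alone, and with no block, Ddx58, Irf7 and Trim30a lost their call. With the replicate block 10 genes of the set were higher (9 of them shared, with Rtp4 gained and Ddx58 and Trim30a lost). Of the other pathway genes named, Ifna13 was then called lower (-0.22, adjusted p = 0.0498), and Il10rb (0.25, 0.0937) and Ifi27l2a (0.44, 0.0683) lost their call, and over all genes 732 were higher and 524 lower. With the ISRE-like letters extended by C and by CT the share of promoters was 52.2% and 39.1%, against 0.944% and 0.303% of all genes. A longer run of letters can only lower the share. Both shares lay within the exact 95% binomial interval of the main share (38.5% to 80.3%), which does not test the choice of letters.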

Other observations

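STZ replicate 5 was the array with the highest Hsd3b5, a male-specific hydroxysteroid dehydrogenase, among the STZ livers (10.31, against 4.71 to 5.03 in the other 5 and 11.14 to 12.13 in controls). In the same array Usp18 was 9.97 and the 29 interferon-stimulated genes had the second highest median deviation (0.53). These arrays were singled out after their values were seen.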
